A study of Homo sapiens with 42 samples.

Results

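The comparison is between H460 cells 8 h after 2 Gy of gamma radiation (3 arrays) and H460 cells 4 h after the same dose (3 arrays), over all 18404 genes measured. The 6 arrays were chosen by line and time from the labels, out of 21 arrays of H460 and 42 in the series. H460 is a large-cell lung carcinoma line with wild-type p53, named radiosensitive by the study. H1299, a lung carcinoma line without p53 that the study names radioresistant, was measured at the same times and is used here for one test of difference. Cells of both lines grew exponentially when they received the dose. No array is labelled as unirradiated at 8 h or 4 h, so effects of the dose and of hours in culture cannot be told apart. The labels call arrays of a group biological replicates without saying whether they were separate cultures, so p-values measure the spread between these arrays. Each group is 1 cell line and so 1 tumour's cells.

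Ionizing radiation breaks DNA, and the kinases that sense the breaks stabilise p53, which switches on the cell cycle inhibitor p21 (CDKN1A) and its own antagonist MDM2. Feedback through MDM2 makes p53 activity fall again after its first rise, and the same cells pause at the borders of the cell cycle phases. Genes needed to enter and carry out S phase are driven by E2F factors, while genes of G2 and mitosis carry a different element, the CHR, through which the DREAM complex represses them. In RNA from a whole culture, a change in the share of cells in a phase and a change in RNA per cell cannot be told apart.

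Levels are log2 intensities of one-colour arrays, deposited by the authors as normalized values without detection calls, and changes are log2 differences, 8 h minus 4 h, with the standard error of a model fitted to the 21 H460 arrays. A gene passed the test at a Benjamini-Hochberg adjusted p under 0.05 over all genes. The keratins KRT8, KRT18 and KRT19 and vimentin (VIM) stood between 11.5 and 12.2 at 8 h and between 11.3 and 12.2 at 4 h, while EPCAM, CDH1 and NKX2-1 stood under 4 at both times, so those defining markers of lung epithelium were low here. The leukocyte marker PTPRC was at 2.67 at 8 h and 2.90 at 4 h. CD68 stood highest in the leukocyte and endothelial list, at 8.90 at 8 h and 8.81 at 4 h. The summed level of the 21 leukocyte and endothelial markers ran from 9.81 to 9.84 at 8 h and from 9.80 to 9.97 at 4 h, and that of the 15 fibroblast markers from 9.43 to 9.52 at 8 h and from 9.29 to 9.50 at 4 h. The part of such cells in the results was not tested. In those 2 lists FCGR3A, ITGAM and COL6A3 fell and ACTA2 rose. With the width of each array (described next) in the model, the median change of the leukocyte and endothelial list was 0.01, against -0.11 without it, and that of the fibroblast list -0.08, against -0.13.

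The spread of values on the arrays moved with time. The interquartile range averaged 3.64 ± 0.0213 at 8 h and 3.34 ± 0.0521 at 4 h (SD, n = 3 each), and the 2 sets of arrays did not overlap (exact permutation test, two-sided, p = 0.1, the smallest that 3 against 3 allows). The part of this difference in the results below was not tested. Each list of genes is therefore given with its median change in a model with this array width as a term. The slope of that term comes from differences in width between arrays of the same time, which were largest at 0 h (3.14 to 3.63). Widths ran from 3.29 to 3.39 at 4 h and from 3.62 to 3.66 at 8 h. The term thus reaches across a gap that neither group covers, and whether its slope holds there was not tested. One of the 4 h arrays, replicate 2, also had a higher median than the other two of its group.

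Between 4 h and 8 h, 1126 of 18404 genes (6.12%) passed the test, of which 685 (3.72%) were higher and 441 (2.4%) lower at 8 h. Arrays of the 2 times did not overlap for 6795 genes (36.9%), higher at 8 h in 22.8% and lower in 14.2%. The counts of list members below are read against these shares. With each array centred on its median the split turned to 335 higher and 755 lower, and the median change of all genes was 0.03 as deposited and -0.05 after centring. With array width in the model 12 genes passed, 6 higher and 6 lower, and 1660 had an unadjusted p under 0.05. All 1126 genes kept their direction under that model, and 11 of them passed. The number was 595, 1126 and 227 without 4 h replicate 1, 2 and 3, and 250, 369 and 306 without 8 h replicate 1, 2 and 3. Of 106 passing genes that were examined singly, 44 passed in all 6 of these fits, and the other 62 missed in at least 1.

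The 12 genes called with array width in the model have a range of roles. BCOR (a corepressor that partners BCL6), the mitochondrial aminopeptidase gene METAP1D, the neuritin gene NRN1, the kinase gene PDK4, the tryptophan dioxygenase gene TDO2 and the clock output gene DBP were higher. CCNE2, E2F7, UNG, H4C14, the protease gene FAM111B and PSMC3IP, a recombination cofactor, were lower. DBP had not passed without the term (change 0.54, adjusted p = 0.0647), and its change with the term was 0.96. BCOR stood at 7.98, 8.02 and 8.00 at 8 h, against 7.10, 7.08 and 7.15 at 4 h. These 2 sets of arrays lay far apart for their spread, and the change of 0.89 ± 0.10 was 1.85-fold (adjusted p = 8.42e-05).

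**Figure D1:**
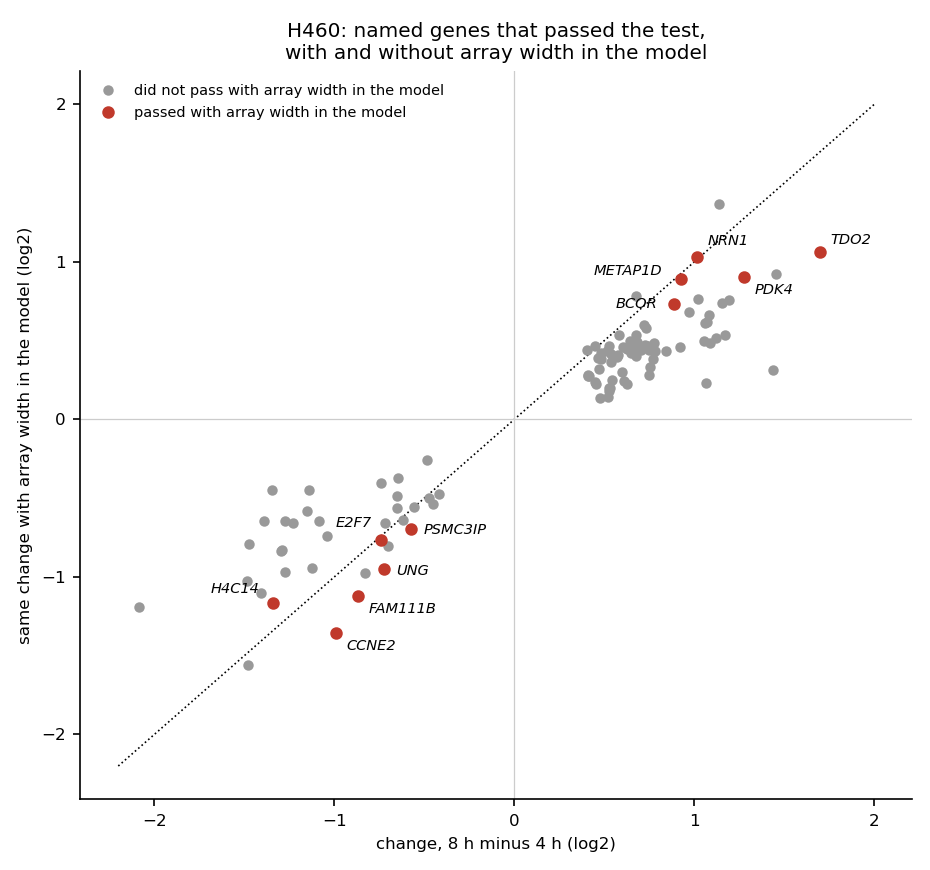
Change of each named gene that passed the test in H460, 8 h minus 4 h (log2, horizontal axis), against the same change with array width in the model (vertical axis). Red points passed with the term and grey points did not, the dotted line marks equal values, and no point changes sign.

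Some genes of the S phase entry program were lower at 8 h than at 4 h. Of 49 measured genes of G1/S and replication, 0 rose and 10 fell, where 2.4% of all genes fell. In all 32 had a negative and 17 a positive change, and the median change was -0.11 against 0.03 for all genes. CCNE2 (cyclin E2, which drives entry into S phase) stood at 5.908, 6.154 and 5.920 at 8 h, against 7.155, 6.795 and 7.005 at 4 h. E2F7, an E2F factor that represses the program, stood at 8.15, 8.27 and 8.21 at 8 h, against 9.08, 8.80 and 8.96 at 4 h. UNG, a glycosylase that removes uracil from DNA, stood at 6.99, 7.12 and 6.89 at 8 h, against 7.75, 7.84 and 7.58 at 4 h. In none of these 3 did an array at 8 h reach the lowest array at 4 h. The changes were -0.99 ± 0.17 for CCNE2, -0.74 ± 0.12 for E2F7 and -0.73 ± 0.12 for UNG, and these became -1.35, -0.76 and -0.95 with array width in the model. The flap endonuclease FEN1 fell by 0.45 and the chromatin factor UHRF1 fell by 0.56, with E2F8, TK1, POLD3, CHAF1A and MCM5 completing the 10. The list median was -0.28 with array width in the model and -0.24 after quantile normalization, with 3 and 10 members lower in those fits. Without an array of 4 h the count was 5, 6 and 5 (replicates 1, 2 and 3), and without any 1 array of 8 h it was 3.

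A few histone genes that are transcribed in S phase were lower too. Of 48 measured replication-dependent histones 0 rose and 4 fell (2.4% of all genes fell), and 38 had a negative change, with a median of -0.23 (-0.40 with array width in the model, -0.29 after quantile normalization). H4C14 stood at 9.35, 9.24 and 9.46 at 8 h, against 10.42, 11.05 and 10.58 at 4 h, a change of -1.34 ± 0.18 (2.53-fold lower, adjusted p = 0.000292). H2AC21 stood at 10.67, 10.69 and 10.75 at 8 h, against 11.66, 11.98 and 11.85 at 4 h, a change of -1.12 ± 0.16. Over the 48 histones the arrays did not overlap in 19 that were lower (14.2% of all genes) and 1 that was higher (22.8%). H4C2 fell by 0.65 and H4C1 fell by 0.74. The count was 1 with array width in the model, 7 after quantile normalization and 8 after median centring. It was 7, 3 and 4 without 4 h replicate 1, 2 and 3, and 3 without any 1 array of 8 h, and the median was -0.13 without 4 h replicate 2. Several histone genes are close to identical in sequence, and their probe sets may not separate them.

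Several genes of G2 and mitosis were higher at 8 h. Of 51 measured, 15 rose and 0 fell, where 3.72% of all genes rose, and 45 had a positive change, with a median of 0.37. KIF20A, a motor of cytokinesis, stood at 10.18, 10.16 and 10.18 at 8 h, against 9.61, 9.26 and 9.31 at 4 h, a change of 0.78 ± 0.13 (1.72-fold, adjusted p = 0.00179). CCNB1, the cyclin that starts mitosis, stood at 11.74, 11.62 and 11.65 at 8 h, against 11.09, 10.87 and 11.08 at 4 h, a change of 0.66 ± 0.12 (1.58-fold). The 8 h arrays of both genes were close together and above each 4 h array. The phosphatase CDC25C, which activates the partner kinase of cyclin B, rose by 0.68 ± 0.12 and the spindle kinase AURKA by 0.58 ± 0.12. CKS2, a small subunit of the cyclin-dependent kinases, rose by 1.06 ± 0.25 and the kinesin KIF14 by 0.75 ± 0.16. The list median was 0.12 with array width in the model and 0.23 after quantile normalization, with 0 and 8 members passing in those fits. The count was 10, 11 and 6 without 4 h replicate 1, 2 and 3, and 5, 7 and 7 without 8 h replicate 1, 2 and 3.

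The promoters of these 2 lists carry different elements, and 4 are shown because they belong to the members with the smallest p whose window holds the element of their list. The windows run from 250 bases before to 50 after the RefSeq gene start (GRCh38.p14), 5′ to 3′ on the gene's strand, and 14230 windows of tested genes were searched on both strands. The CHR letters, TTTGAA, were in 28 of 43 windows of G2 and mitosis genes (65.1%), 1 of 42 of G1/S genes (2.38%) and 11.9% of all windows. The E2F letters, TTCCCGC or TTGGCGC, were in 30 of 42 windows of G1/S genes (71.4%), 7 of 43 of G2 and mitosis genes (16.3%) and 12.6% of all. Among members that changed, 6 of 14 G2 and mitosis windows held the CHR letters (42.9%, less than the 65.1% of the list). The E2F letters were in 4 of 6 G1/S windows of such members (66.7%, against 71.4% of the list). A match describes these letters only, and capitals mark it. KIF14 is at chr1:200620702-200621001 (minus strand), NUF2 at chr1:163321704-163322003 (plus), E2F7 at chr12:77065520-77065819 (minus) and UNG at chr12:109097347-109097646 (plus). In KIF14 and E2F7 the letters stand on the opposite strand, and in UNG 2 matches overlap. NUF2, a kinetochore protein, rose by 0.69 ± 0.16.
KIF14: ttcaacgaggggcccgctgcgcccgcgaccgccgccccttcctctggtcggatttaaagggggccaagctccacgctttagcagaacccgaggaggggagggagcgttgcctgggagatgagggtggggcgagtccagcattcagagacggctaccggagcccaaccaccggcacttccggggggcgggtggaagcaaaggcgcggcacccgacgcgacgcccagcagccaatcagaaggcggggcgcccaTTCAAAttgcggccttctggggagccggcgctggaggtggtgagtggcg
NUF2: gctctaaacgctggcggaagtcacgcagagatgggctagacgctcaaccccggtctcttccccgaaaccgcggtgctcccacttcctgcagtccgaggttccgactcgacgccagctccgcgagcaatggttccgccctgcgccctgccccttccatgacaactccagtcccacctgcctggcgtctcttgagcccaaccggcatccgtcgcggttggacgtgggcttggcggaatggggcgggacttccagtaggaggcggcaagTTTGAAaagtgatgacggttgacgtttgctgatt
E2F7: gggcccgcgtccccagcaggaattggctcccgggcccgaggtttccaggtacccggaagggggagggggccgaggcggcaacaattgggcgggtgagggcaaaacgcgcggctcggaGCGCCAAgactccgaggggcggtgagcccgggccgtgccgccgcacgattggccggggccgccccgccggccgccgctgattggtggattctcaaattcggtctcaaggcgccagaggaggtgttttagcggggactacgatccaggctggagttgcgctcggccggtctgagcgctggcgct
UNG: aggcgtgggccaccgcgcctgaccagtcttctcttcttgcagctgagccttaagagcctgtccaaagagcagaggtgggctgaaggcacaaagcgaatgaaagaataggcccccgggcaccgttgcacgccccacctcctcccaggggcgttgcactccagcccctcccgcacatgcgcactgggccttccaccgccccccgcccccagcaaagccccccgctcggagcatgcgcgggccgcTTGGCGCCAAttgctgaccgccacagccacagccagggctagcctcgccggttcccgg

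**Figure D2:**
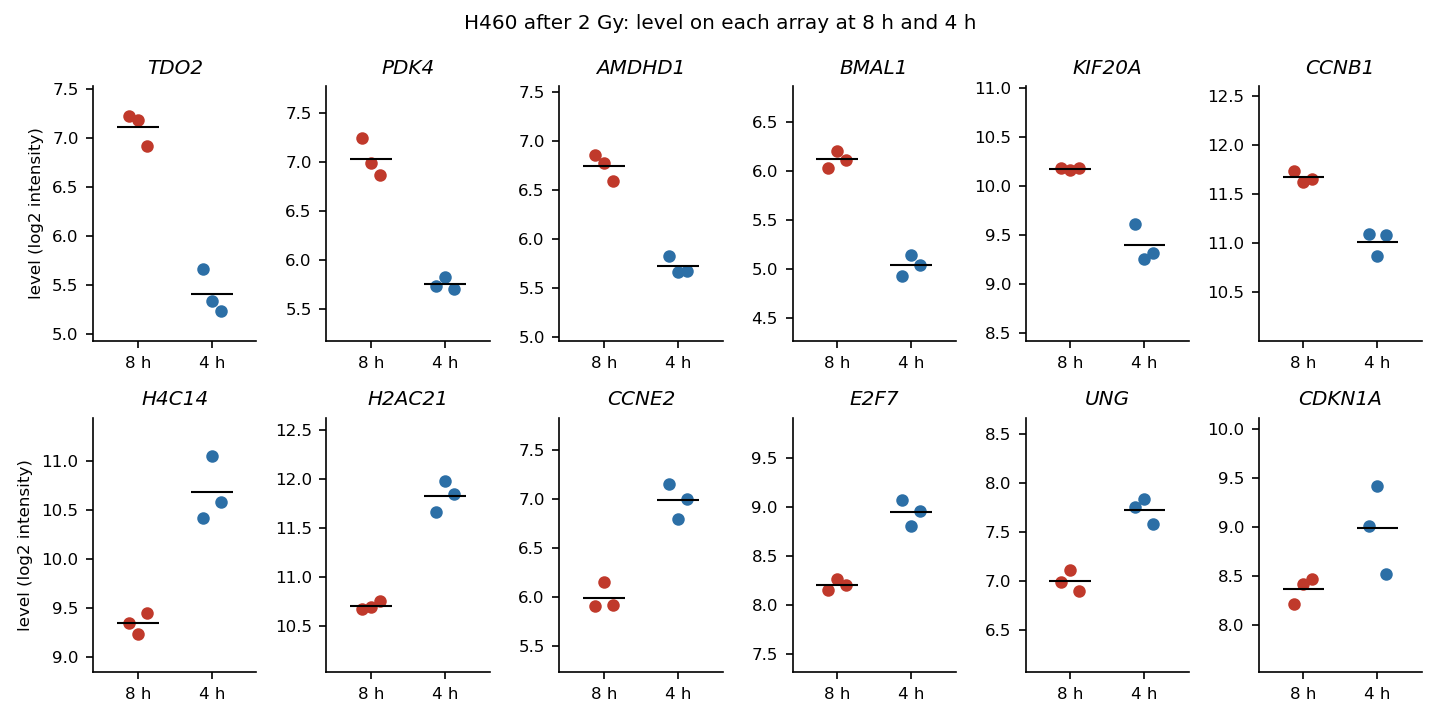
Level (log2 intensity) of 12 genes on each of the 3 arrays at 8 h (red) and the 3 at 4 h (blue) in H460, with a line at each mean. The 2 times do not overlap in any of the 12 panels, and in CDKN1A the nearest arrays, 8.46 at 8 h and 8.52 at 4 h, almost touch. TDO2, PDK4, BMAL1 and H4C14 were named from genes without overlap.

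The p53 targets did not move as one group. Of 45 measured, 2 rose and 3 fell, where 3.72% of all genes rose and 2.4% fell. The median change was -0.08 (-0.14 with array width in the model, -0.20 after quantile normalization), and it was 0.04 without 4 h replicate 2. CDKN1A stood at 8.21, 8.41 and 8.46 at 8 h, against 9.01, 9.41 and 8.52 at 4 h. The spread at 4 h was wide, and the change of -0.62 ± 0.15 (1.54-fold lower, adjusted p = 0.016) did not pass without 4 h replicate 2 or 8 h replicate 1 (highest adjusted p = 0.0967). MDM2 stood at 10.68, 10.60 and 10.46 at 8 h, against 10.91, 10.88 and 10.93 at 4 h, a change of -0.33 ± 0.12 that did not pass (adjusted p = 0.104). By limma after quantile normalization both genes passed (adjusted p = 0.0105 for CDKN1A and 0.0138 for MDM2). After median centring CDKN1A passed and MDM2 did not (limma, adjusted p = 0.00669 and 0.0581). With array width in the model neither gene passed. SFN, which encodes a 14-3-3 protein of the G2 checkpoint, fell by 0.48 and the death receptor gene TNFRSF10A fell by 0.42. SPATA18, which acts in mitochondrial quality control, rose by 0.68 and cyclin G1 (CCNG1) by 0.48. After quantile normalization 1 rose and 7 fell, and after median centring 1 and 6. Without 1 array, 0 or 1 rose and 0 to 2 fell.

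Over the whole time course the named genes had their highest or lowest means at different times. These were group means as deposited, and the place of a highest or lowest mean was not tested. The H460 arrays were narrowest at 2 h, with widths from 2.75 to 2.97, and array width was not in the model here. CDKN1A averaged 7.36, 8.38, 8.98, 8.36, 8.43 and 7.89 at 0, 2, 4, 8, 12 and 24 h, so its highest mean was at 4 h. E2F7 averaged 8.56, 8.58, 8.95, 8.21, 7.96 and 7.75 and also had its highest mean at 4 h. CCNE2 averaged 7.79, 6.80, 6.99, 5.99, 6.59 and 7.23, with its lowest mean at 8 h. CCNB1 averaged 11.12, 10.78, 11.01, 11.67, 11.46 and 10.74, with its highest mean at 8 h. H4C14 fell further by 12 h (change from 8 h -1.07, adjusted p = 0.00222), and H2AC21 did so too (-1.27, adjusted p = 7.86e-05). PDK4 averaged 5.99, 5.93, 5.76, 7.03, 7.45 and 8.70, with its lowest mean at 4 h.

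**Figure D3:**
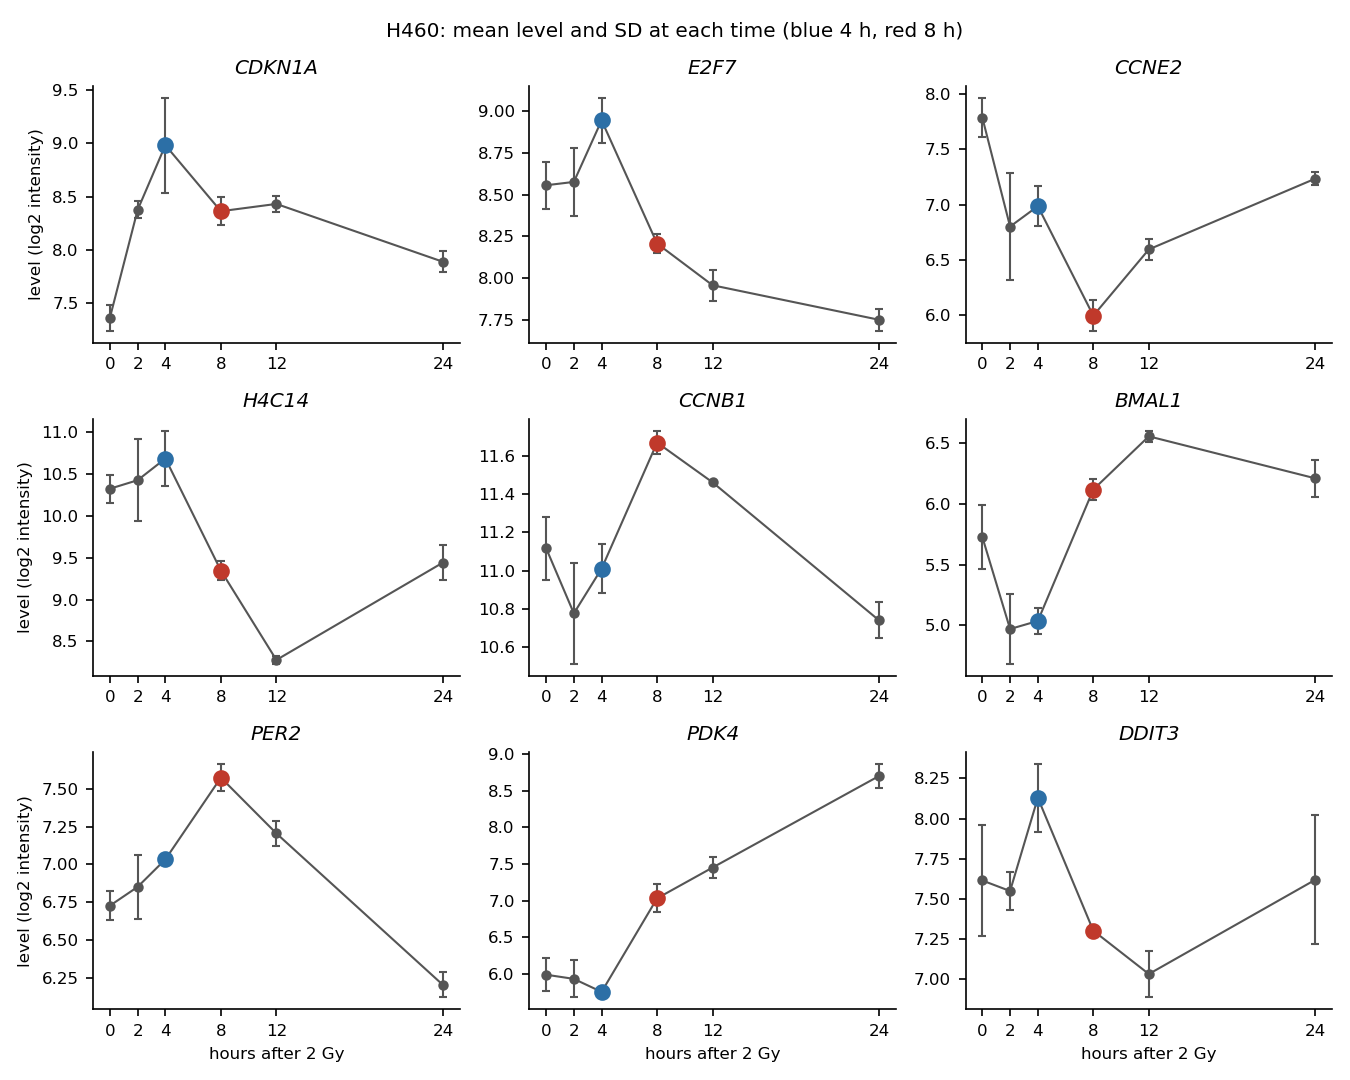
Mean level (log2 intensity) with SD of 9 genes in H460 at 0 h (6 arrays) and 2, 4, 8, 12 and 24 h (3 arrays each) after 2 Gy, with 4 h in blue and 8 h in red. CDKN1A, E2F7, H4C14 and DDIT3 have their highest mean at 4 h, CCNB1 and PER2 at 8 h, BMAL1 at 12 h, PDK4 at 24 h, and CCNE2 has its lowest mean at 8 h.

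The 15 largest rises were of genes with varied roles. TDO2, which breaks down tryptophan, stood at 7.22, 7.18 and 6.92 at 8 h, against 5.66, 5.33 and 5.23 at 4 h, a change of 1.70 ± 0.23 (3.25-fold, adjusted p = 0.000292). PDK4, which inhibits pyruvate dehydrogenase, stood at 7.24, 6.99 and 6.87 at 8 h, against 5.74, 5.83 and 5.70 at 4 h, a change of 1.28 ± 0.15 (2.42-fold, adjusted p = 8.61e-05). The 15 were taken from passing genes whose arrays did not overlap. Every array at 8 h was thus above every array at 4 h by that choice. The lipid transporter gene ABCA8 rose by 1.20 ± 0.22, SESN3, an inhibitor of mTORC1 signalling, by 1.15 ± 0.25, the carboxypeptidase inhibitor LXN by 1.09 and the ribosomal protein gene RPS29 by 1.12. ZNF814, PIBF1 and 5 small noncoding RNAs (SNORD116-24, RNU5D-1, RNY1, RNU5B-1 and SNORD60) were also among the 15 largest rises, with BMAL1 and CKS2. ZNF814, LXN, CKS2, RNU5D-1, RNY1, RNU5B-1 and SNORD60 did not pass without 4 h replicate 3, nor without 8 h replicate 1.

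Of the 15 largest falls, all but SPRR2F and H4C14 had a mean at 8 h below the median gene's 6.09. RFPL4A stood at 3.43, 3.83 and 3.15 at 8 h, against 6.04, 4.51 and 6.12 at 4 h, a change of -2.08 ± 0.45 that did not pass without 4 h replicate 3. TMEM51-AS1, an antisense RNA, stood at 4.45, 4.69 and 4.43 at 8 h, against 6.03, 5.67 and 6.33 at 4 h, and ZNF492 averaged 2.58 at 8 h and 4.06 at 4 h. The other 12 were H4C14, LOC441081, SPRR2F, RNASE2CP, LGALS16, TRIM51, PM20D1-AS1, 3 olfactory receptor genes (OR2L2, OR2L8 and OR3A2) and 2 keratin-associated protein genes (KRTAP5-2 and KRTAP4-4). Without 4 h replicate 3, LOC441081, OR2L8, RNASE2CP, TRIM51 and PM20D1-AS1 did not pass either. Of the 6135 dimmest genes (33.3% of all, by their brightest group mean), 37 rose and 274 fell (median -0.14), against 648 and 167 of the other 12269 (median 0.12). Values came without detection calls, so whether these transcripts were above background was not measured.

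Circadian clock genes rose in part. Of 20 measured, 6 rose and 0 fell, where 3.72% of all genes rose, with a median change of 0.19 (0.14 with array width in the model, 0.17 after quantile normalization). BMAL1, the activating partner of CLOCK, stood at 6.03, 6.21 and 6.11 at 8 h, against 4.93, 5.14 and 5.04 at 4 h, a change of 1.08 ± 0.16 (2.12-fold, adjusted p = 0.000987). The repressor NFIL3 rose by 0.97 ± 0.17, the repressor PER2 by 0.54 ± 0.12, BHLHE40 by 0.48 and CRY1 by 0.45, with PER1 as the sixth. None of these 6 passed with array width in the model by limma, where DBP alone of the list did. BMAL1 and NFIL3 passed in all 6 fits that left out an array, and PER2 did not pass without 8 h replicate 2. The count was 2 after quantile normalization and 3 after median centring. It was 3, 5 and 3 without 4 h replicate 1, 2 and 3, and 3, 2 and 3 without 8 h replicate 1, 2 and 3.

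Early-response and signalling genes moved both ways. Of 27 immediate-early and AP-1 genes, 4 rose and 2 fell, where 3.72% of all genes rose and 2.4% fell. The list median was 0.02 both as deposited and with array width in the model, but -0.10 after quantile normalization, -0.05 after median centring, and -0.04, -0.03 and -0.0012 without 4 h replicate 1, 4 h replicate 3 and 8 h replicate 3. Among its members the nuclear receptor NR4A3 rose by 0.68 ± 0.13, while the stress factor ATF3 fell by 0.70 and the AP-1 subunit FOSL1 fell by 0.65. Of 20 MAP kinase feedback genes, 2 rose and 1 fell (median 0.10, and 0.07 with array width in the model). The phosphatases DUSP1 and DUSP10 rose by 0.48 and 0.63, and SPRY1, an inhibitor of growth factor signalling, fell by 0.72. Of 21 TGF-beta feedback and ID genes 3 rose and 0 fell (median 0.12, and 0.04 with array width in the model), with TGFB2, a ligand, up by 0.72, ID1 by 0.73 and ID2 by 0.66. ID1 stood at 8.50, 8.46 and 8.56 at 8 h, against 7.40, 8.38 and 7.56 at 4 h, so replicate 2 at 4 h lay close to the 8 h arrays. Of the 3, ID2 and TGFB2 passed in all 6 fits that left out an array. Of 26 NF-kB targets 2 rose and 0 fell (PTX3 and NFKB1), with a median of 0.20, and 0.07 with array width in the model. Of 38 interferon-stimulated genes 5 rose and 0 fell, with a median of 0.19, and 0.07 with array width in the model. SAMD9 had the largest rise (0.77 ± 0.19) and SP110 the smallest p (0.63 ± 0.13), and 1 member was higher after quantile normalization.

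In lists of lipid synthesis and stress genes most of the calls were rises. Of 28 cholesterol and fatty acid synthesis genes 3 rose and 0 fell, where 3.72% of all genes rose. A positive change was seen in 27, and in 23 the arrays were higher without overlap (22.8% of all genes). Their median change was 0.34 (0.14 with array width in the model), with the desaturase SCD up by 0.41, the sterol carrier gene STARD4 by 0.54 and the isoprenoid enzyme IDI1 by 0.61. Of 24 chaperones of the endoplasmic reticulum 4 rose and 0 fell (median 0.25, and 0.11 with array width in the model), led by DNAJC3, which restrains the kinase PERK (0.84 ± 0.21). After quantile normalization 0 members of either list passed. Without 4 h replicate 3 or any 1 array of 8 h, 0 of either list passed, and without 4 h replicate 2 the lipid count was 6. Of 30 NRF2 targets 4 rose and 0 fell, including AKR1C3 (0.47 ± 0.10), a carbonyl reductase. The list median was 0.29, and 0.08 with array width in the model, where 0 members passed. The NRF2 counts were 1 higher and 1 lower after quantile normalization (median 0.15), and 2 and 1 after median centring. Without 1 array, 1 to 3 of them rose. Of 34 ATF4 targets 2 rose and 1 fell, 24 had a positive and 10 a negative change, and the median of 0.16 was 0.02 with array width in the model and 0.02 after quantile normalization. CTH, which makes cysteine, rose by 0.75 ± 0.16, and DDIT3, the stress factor CHOP, stood at 7.26, 7.32 and 7.32 at 8 h, against 7.90, 8.31 and 8.18 at 4 h (change -0.83 ± 0.19).

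Of 58 cytosolic ribosomal protein genes 10 rose and 0 fell (median 0.19, and 0.09 with array width in the model), and 3 rose and 1 fell after quantile normalization. RPL27A rose by 0.70 and RPL11 by 0.78, and the count ran from 1 without 4 h replicate 3 to 14 without 4 h replicate 2. The initiator caspase CASP9 rose by 0.73 ± 0.13, the 1 call among 30 BCL2 family and caspase genes, whose median of 0.05 was -0.01 with array width in the model, -0.05 after quantile normalization and -0.02 after median centring. In the lysosome and autophagy list 2 of 36 rose (NEU1 and GLA, both lysosomal hydrolases), and in the YAP target list 2 of 20 rose (TGFB2 and ARHGEF17). The checkpoint gene ETAA1 was the 1 of 22 that rose in its list, and the glucose transporter SLC2A3 the 1 of 33 in the hypoxia list. The lysosome, checkpoint, hypoxia and caspase counts lie near the 3.72% of all genes that rose. With array width in the model the medians were 0.01 for the lysosome list (0.16 without it), -0.10 for the YAP list (-0.02), -0.03 for the checkpoint list (0.16) and 0.03 for the hypoxia list (0.09, and -0.01 after quantile normalization). The YAP median was 0.0083 without 4 h replicate 2. Of 31 double-strand break repair and Fanconi genes 0 passed by limma, and 7 were higher and 1 lower at an unadjusted p under 0.05, as were 14.9% and 10.2% of all genes. Their median of 0.18 was -0.04 with array width in the model and 0.05 after quantile normalization. Of 35 ribosome biogenesis genes 0 passed and 3 were higher at that p, with a median of 0.07, but -0.11 with array width in the model and -0.07 after quantile normalization. Of 16 epithelial markers 0 passed and 2 were lower at that p, with a median of -0.11, but 0.03 with array width in the model.

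**Figure D4:**
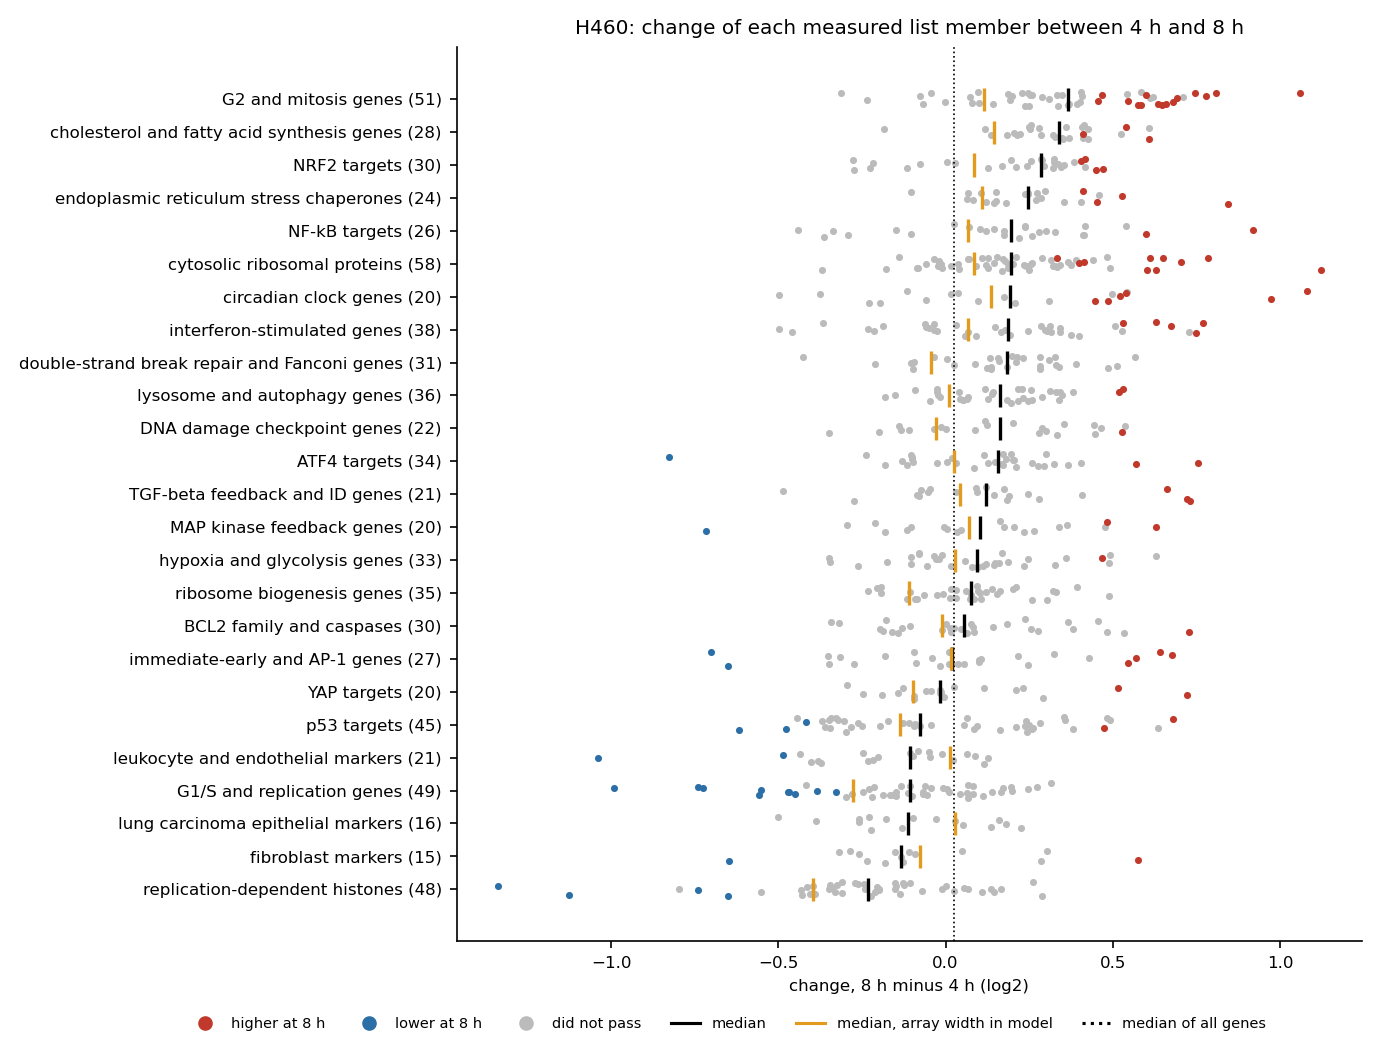
Change of each measured member of the 25 lists in H460, 8 h minus 4 h (log2), with members that rose in red, those that fell in blue and those that did not pass in grey. Black bars are list medians, orange bars the medians with array width in the model, and the dotted line the median of all genes. The G2 and mitosis list has the highest median (0.37) and the histone list the lowest (-0.23).

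Set against H1299, 56 of 18404 genes (0.304%) changed differently between 8 h and 4 h in the 2 lines, 24 more positive and 32 more negative in H460. That split was 20 and 85 after median centring, 15 and 39 after quantile normalization, 31 and 25 with a replicate block, 52 and 41 with array width in the model, 792 and 250 with only the arrays at 4 and 8 h, and 1799 and 816 with array weights. In H1299 itself 52 genes (0.283%) passed, 46 higher and 6 lower. The width of H1299 arrays was also larger at 8 h, 3.81 ± 0.0680 against 3.66 ± 0.0339 at 4 h (SD, n = 3 each). AMDHD1, an enzyme of histidine breakdown, changed by 1.02 ± 0.16 in H460 and by -0.21 in H1299, a difference of 1.23 ± 0.19 (adjusted p = 0.00116). E2F7 changed by -0.74 in H460 and by 0.08 in H1299, a difference of -0.82 ± 0.13 (adjusted p = 0.00116), and UNG by -0.73 in H460 and 0.02 in H1299. H2AC21 changed by -1.12 in H460 and by 0.20 in H1299, a difference of -1.32 ± 0.23 (adjusted p = 0.00409). ID2 rose by 0.66 in H460, while its change of -0.32 in H1299 did not pass (difference 0.98 ± 0.17). CCNE2 changed by -0.99 in H460 and fell by 0.75 in H1299, and the difference of -0.24 ± 0.22 did not pass (adjusted p = 0.645). The difference for CDKN1A was -0.61 ± 0.17 and did not pass (adjusted p = 0.0915). Of the 51 genes of G2 and mitosis, 15 were higher in H460, where 685 of all 18404 genes rose. In H1299, where 46 of all genes rose, 8 of the 51 were higher. The list medians were 0.37 in H460 and 0.26 in H1299. With array width in the model the H460 median was 0.12, and that term was not fitted to the H1299 change alone. The number of differing genes was 12 without H1299 4 h replicate 2 and 127 without H460 4 h replicate 2, and 19 to 41 without any 1 of the other arrays at these times.

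**Figure D5:**
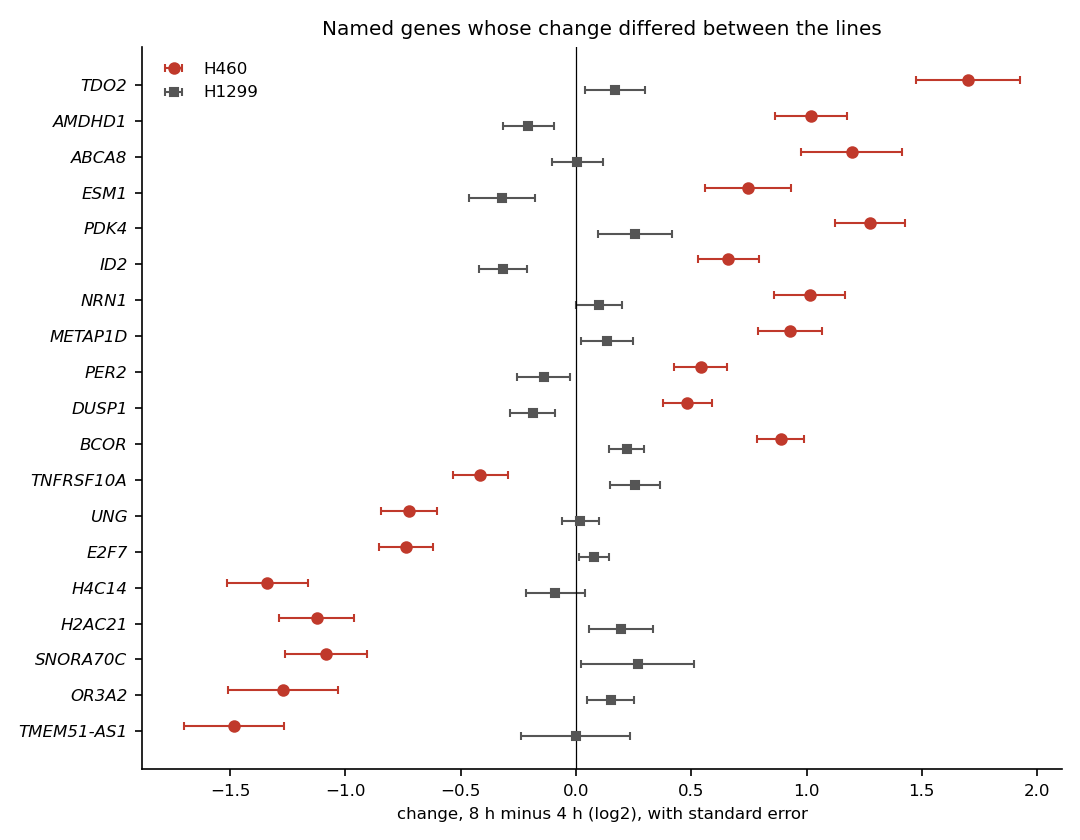
Change, 8 h minus 4 h (log2), with its standard error in H460 (red circles) and H1299 (grey squares) for 19 named genes whose change differed between the lines. H460 values run from -1.48 for TMEM51-AS1 to 1.70 for TDO2, while the H1299 values lie between -0.32 and 0.27.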

How the data were processed

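Target made from 100 ng of total RNA was hybridised to 1-colour Affymetrix arrays, per the labels' protocols. The deposited values are log2 summaries per probe set, normalized by the authors with a method not given in the sources used here, and run from 1.45 to 14.2. Of 32321 entries, 19158 had 1 symbol, 1388 several and 11775 none in the probe table, and 19128 symbols matched RefSeq. For each gene the entry with the highest mean was kept (754 left out), giving 18404 genes. No 2 arrays were identical (0 pairs).

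limma 3.58.1 (R 4.3.3; lmFit, eBayes with trend) was fitted with 1 mean per time over the 21 H460 arrays (15 residual degrees of freedom), or per line and time over all 42 (30) for the difference between lines. Tests were two-sided, adjusted by Benjamini-Hochberg over all genes, with a threshold of 0.05. Errors after ± are standard errors unless SD is written. The number of arrays limits the precision. On simulated data, 94 of 100 changes of 1 and 43 of 100 of 0.5 were recovered for H460, with 6.8% false calls, and 84 and 10 for the difference, with 5.05%. The simulated arrays had independent noise and no shared shift in median or width between times. These rates therefore do not describe the calls in the real arrays, whose width moved with time.

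The members and the 25 lists (837 genes, 765 measured) were chosen with earlier results of these data known. Named are CDKN1A and MDM2, the 15 largest rises and 15 largest falls among called genes with non-overlapping arrays, up to 5 members per list with the smallest p, and the 5 largest differences between lines in each direction. BCOR, METAP1D, NRN1, FAM111B, PSMC3IP, NUF2, DBP, PER1 and the further members listed by name were added after their values were seen. Other settings were removal of dim genes (the 33.3% whose brightest group mean was under 5.59), all entries, eBayes without trend, robust eBayes, quantile normalization, median centring, array weights, a replicate block, fewer or more arrays in the fit, array width (the interquartile range) as a term, and each array left out. Promoter windows on chromosome 8 were not searched.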

Additional observations from a re-analysis of the deposited data

Results flagged for a closer look

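In 19 named genes the change from 4 h to 8 h differed between the lines by the test of the difference itself (limma, adjusted p under 0.05). The H460 change minus the H1299 change was 1.53 for TDO2, 1.23 for AMDHD1, 1.19 for ABCA8, 1.07 for ESM1 and 1.02 for PDK4. It was 0.98 for ID2, 0.92 for NRN1, 0.79 for METAP1D, 0.68 for PER2, 0.67 for DUSP1 and 0.67 for BCOR. It was -0.67 for TNFRSF10A, -0.74 for UNG, -0.82 for E2F7, -1.25 for H4C14 and -1.32 for H2AC21. It was -1.35 for SNORA70C, -1.42 for OR3A2 and -1.48 for TMEM51-AS1. ESM1 rose by 0.75 in H460 and did not pass without 4 h replicate 1, 8 h replicate 1 or 8 h replicate 2.

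Among the 6 unirradiated H460 arrays, DUSP1 on replicate 6 stood at 9.65, apart from the other 5, which ran from 9.29 to 9.41. Chance sets an array apart by this measure in about 1 group in 20, and levels at 0 h were looked at for more genes than DUSP1. Replicate 6 also had the widest interquartile range of the 6 arrays (3.63, the others 3.14 to 3.39). It was the highest of them for TDO2 (5.90), PDK4 (6.35) and NFIL3 (6.61) too, but not for CDKN1A, E2F7 or H4C14. Whether the value of DUSP1 belongs to that gene or to the whole array was not tested.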

How the results depend on the processing

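The number of genes that passed in H460 was 12 with array width in the model, 479 after quantile normalization (222 higher, 257 lower), 6033 with array weights, 2737 with only the arrays at 4 and 8 h and 2545 with all 42 arrays. Leaving out 1 array it ran from 227 to 1126. The count stayed within 1.5 times of 1126 for median centring (1090), without dim genes (899), all entries (1615, with 692 higher and 923 lower), eBayes without trend (1094), robust eBayes (1123) and a replicate block (1459). Of the 1126 genes, 387 passed after quantile normalization, 776 after centring and 1092 with the block, all in the same direction. The number that differed between the lines was 105 after median centring, 2615 with array weights, 1042 with only the arrays at 4 and 8 h and 93 with array width in the model, and ran from 12 to 127 with 1 array left out. With the replicate block it was 56, of which 44 were shared with the 56 found without it. Same-numbered H460 arrays did not deviate together (correlations of 0.0455, -0.0964 and -0.0554), so the numbers were not taken as pairs. Of 161 genes examined singly, 95 lost and 1 gained the call with array width in the model. All 12 genes called with that term were put among the 161 for that reason, so the 1 gain follows from the choice. After quantile normalization 36 lost and 4 gained the call. With 1 array left out 17 to 54 lost it, while 44 of the 106 called passed in all 6 such fits. List medians moved by more than the median standard error of their members in 10 of 25 lists with array width and in 8 after quantile normalization, and took the other sign in 6 and 4 lists, and in 2 after median centring. Of the genes examined singly, none that passed changed sign under the settings run on them. The cause of these moves was not tested. Without detection calls, signal over background limits what low values can show.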

Other observations

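Gene families that no list covered were grouped by symbol after their values were seen. Over all genes 3.72% rose and 2.4% fell, and among the 6135 dimmest genes 0.603% rose and 4.47% fell. Of 360 olfactory receptor genes 0 rose and 50 fell, with a median level of 3.22 at 8 h and 3.52 at 4 h and a median change of -0.28 (-0.12 with array width in the model). Of 68 keratin-associated protein genes, which encode hair proteins, 0 rose and 13 fell, with median levels of 4.46 at 8 h and 4.90 at 4 h and a median change of -0.23 (-0.09 with array width in the model). Of 216 small noncoding RNA genes 22 rose and 10 fell, with a median change of 0.15, and -8.1e-05 with array width in the model. Members of these families can share near-identical sequence.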
